A study of Mus musculus with 12 samples.

Results

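The genes described here are 40 genes of G2 and M phase, the part of the cell cycle in which a cell prepares for and carries out division. They were taken by symbol from a list of genes known for these phases, a list drawn up with earlier results of these data known, and all 40 were among the 15366 genes of the deposited expression table. All 40 also passed the filter on low values (more than 1 CPM, a read count scaled to library depth, in at least 3 libraries), as did 13046 genes in all. RNA-seq was carried out on mouse bone marrow LSK cells (lineage-negative, Sca-1-positive, Kit-positive), the sorted fraction that holds blood stem cells and early multipotent progenitors. The 12 libraries, from untreated C57BL/6 mice, fell into 4 genotypes with 3 libraries each. The control, Vav Cre, carried only the Cre recombinase driven by the Vav promoter, which is active across blood cells. The Tet2 KO group carried Vav Cre and 2 floxed alleles of Tet2, a DNA demethylase often mutated in chronic myelomonocytic leukemia. The KDM6B OE group carried human KDM6B, an H3K27 demethylase, under the Vav promoter, and its label names no Cre. The double lesion group carried the KDM6B transgene, Vav Cre and floxed Tet2 together. KDM6B OE against Vav Cre therefore also sets libraries with no labelled Cre against libraries with it. The double lesion against KDM6B OE does so too, in the other direction. The sources used here give no ages. Nothing in the labels ties each library to an animal of its own, so the p-values reflect the spread between samples and part of that may be technical. The series asks how the 2 lesions together alter gene expression in LSK cells.

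Cells enter mitosis when cyclin B and CDK1 together phosphorylate many proteins, a step aided by Aurora and Polo-like kinases. Motor proteins then build the spindle, kinetochores attach chromosomes to it, a checkpoint holds the cell back until every chromosome is attached, and the anaphase-promoting complex ends mitosis by marking cyclins for breakdown. Most genes of this programme are transcribed together late in the cycle and are held silent in resting cells by the DREAM repressor complex. Long-term blood stem cells are mostly quiescent, and the multipotent progenitors that share the LSK gate divide more often. These transcripts are therefore thought to come mainly from dividing cells, and the dividing share of the LSK cells was not measured here.

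Late cell cycle genes are known for 2 kinds of promoter element, a CHR element (cell cycle genes homology region, here TTTGAA or TTCGAA), which DREAM and the activator MYBL2-MuvB-FOXM1 contact through LIN54, and CCAAT boxes, which NF-Y binds. Both were searched on both strands in RefSeq windows of 300 bases, from 250 before to 50 after the start (GRCm38.p6). TTCGAA is its own reverse complement and was counted once per site, and matches of different motifs may share bases. The table held 38 windows for 35 of the 40 genes, with none matched for Ccna2, Cdc25c, Aurkb, Tpx2 and Dlgap5. A CHR element was found in 29 of 38 windows (76.3%), against 19.2% of all 32851 windows, 14% of those of tested genes, 49.1% of 55 windows of 47 other mitotic genes and 14.6% of 41 windows of 36 S phase genes (lists of 64 and 50 genes, of which the rest had no matched window). CCAAT was found in 78.9% of the member windows, 67.3% of other mitotic, 58.5% of S phase and 37.4% of all windows. At least 2 CCAAT boxes stood in 55.3% of the member windows, 34.5% of other mitotic, 36.6% of S phase and 11.7% of all windows. Both elements stood in 65.8% of the member windows, 38.2% of other mitotic, 12.2% of S phase and 7.52% of all windows. A match is a description of the letters and not a measured binding site. The 6 promoters below, of called members, are shown because they hold a CHR element before the start and so illustrate it. Each is the 200 bases before the start, 5′ to 3′ on the gene's strand, with CHR elements and CCAAT boxes in capitals (TTCAAA and ATTGG are the same elements on the other strand). The windows are Cdk1 chr10:69352913-69353112 (minus strand), Kif11 chr19:37376182-37376381 (plus), Cdc20 chr4:118437344-118437543 (minus), Top2a chr11:99024190-99024389 (minus), Mki67 chr7:135716380-135716579 (minus) and Ccnb2 chr9:70421555-70421754 (minus).
Cdk1: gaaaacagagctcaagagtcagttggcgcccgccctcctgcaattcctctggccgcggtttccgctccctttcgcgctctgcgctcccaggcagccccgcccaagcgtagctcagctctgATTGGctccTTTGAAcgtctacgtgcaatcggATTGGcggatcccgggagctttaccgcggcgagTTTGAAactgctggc
Kif11: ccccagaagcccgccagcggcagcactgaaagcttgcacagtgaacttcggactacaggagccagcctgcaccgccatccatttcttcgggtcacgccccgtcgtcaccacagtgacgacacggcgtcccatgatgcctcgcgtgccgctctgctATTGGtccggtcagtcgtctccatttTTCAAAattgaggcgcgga
Cdc20: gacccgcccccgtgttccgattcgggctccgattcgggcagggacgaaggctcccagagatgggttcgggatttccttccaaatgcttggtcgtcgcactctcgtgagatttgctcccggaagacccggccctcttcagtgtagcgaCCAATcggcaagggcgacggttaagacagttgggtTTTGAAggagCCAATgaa
Top2a: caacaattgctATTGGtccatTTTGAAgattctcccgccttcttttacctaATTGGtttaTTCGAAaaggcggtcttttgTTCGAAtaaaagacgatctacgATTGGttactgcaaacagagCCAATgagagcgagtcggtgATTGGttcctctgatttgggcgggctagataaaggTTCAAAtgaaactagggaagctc
Mki67: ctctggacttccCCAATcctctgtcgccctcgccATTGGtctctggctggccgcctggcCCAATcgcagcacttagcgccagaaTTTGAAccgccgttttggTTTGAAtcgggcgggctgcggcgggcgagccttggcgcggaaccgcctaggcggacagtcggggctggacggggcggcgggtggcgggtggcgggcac
Ccnb2: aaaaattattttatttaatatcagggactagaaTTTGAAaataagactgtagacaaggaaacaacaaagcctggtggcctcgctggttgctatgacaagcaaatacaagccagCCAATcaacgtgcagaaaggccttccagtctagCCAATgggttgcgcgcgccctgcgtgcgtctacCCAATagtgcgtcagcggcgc
In the printed stretches the CHR element nearest the start began 15 bases before it in Cdk1, 18 in Cdc20, 19 in Kif11, 23 in Top2a, 98 in Mki67 and 167 in Ccnb2. The searched window of Ccnb2 held a further CHR element that began 4 bases after the start, outside the printed stretch. Other members, not printed, had their only CHR element after the start, as in Aurka, Plk1 and Bub1 (32, 30 and 14 bases after it). The distances above are therefore those of promoters chosen for an element before the start. In Cdk1, Kif11 and Top2a a CCAAT box on the other strand lay upstream of the nearest printed element, whereas in Cdc20 a CCAAT box also stood between the element and the start. In Ccnb2 all 3 CCAAT boxes stood between the printed element and the start.

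**Figure D1:**
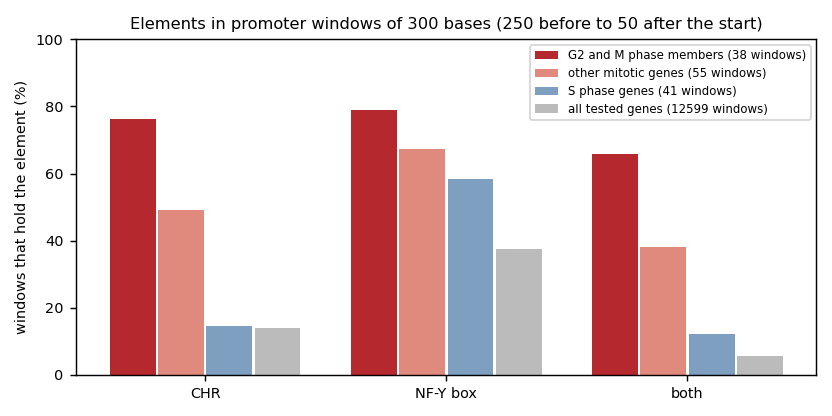
Percentage of RefSeq promoter windows of 300 bases that hold a CHR element, a CCAAT box (NF-Y box) or both, for the 40 G2 and M phase genes (38 windows), other mitotic genes, S phase genes and all tested genes. The G2 and M phase bars stand highest in all 3 sets, at 76.3%, 78.9% and 65.8%.

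Reads on the listed genes numbered 21935022 to 26263370 per library, so that 1 read was worth 0.0373 to 0.0463 CPM. Tet2 stood at 24.1 to 37.2 CPM in the 6 libraries with floxed Tet2 and at 64.9 to 97.1 CPM in the other 6. Mouse Kdm6b stood at 7.79 to 12.5 CPM with the transgene and at 5.46 to 7.91 CPM without it, and the human transgene itself was not analysed here. The sort markers Kit, Ly6a, Ptprc, Cd34 and Flt3 were present in every library, with a sum of 1871 to 2773 CPM, and 7 genes of lineages that the sort should remove summed to 27.7 to 76.2 CPM. Y chromosome transcripts averaged 58.2 to 67.5 CPM in 4 libraries (Vav Cre 1, Tet2 KO 1, double lesion 1 and 3) and at most 0.355 CPM in the other 8, a split that the labels do not mention and that the groups share unequally. 2 libraries stood apart. Vav Cre 2 had the highest value of the 12 for 30 members, while it was highest for 20.6% of all tested genes, and its 7 erythroid genes summed to 1911 CPM against 377 and 690.1 CPM in the other two Vav Cre libraries. Double lesion 1 had the lowest value for 39 members, while it was lowest for 15.8% of all tested genes. Counts that rest on these libraries are given below with and without them.

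G2 and M phase genes were lower in the double lesion than in Vav Cre almost throughout. By limma on log2(CPM + 1), with Benjamini-Hochberg adjustment over all 13046 genes and a threshold of 0.05, 38 of 40 members fell, while 7.58% of all tested genes were called lower. No member was called higher, by limma (also at an unadjusted p under 0.05), edgeR or DESeq2, while limma called 7.34% of all tested genes higher. The median log2 difference was -0.87 over the members and 0.05 over all tested genes. The group mean in the double lesion was 37.8% (Ube2c) to 101% (Gtse1) of that in Vav Cre, with a median of 54.9%, and it was below 50% for 14 members. For 39 members every double lesion library lay below every Vav Cre library, which held for 16.4% of all tested genes. The summed CPM of the 40 genes was 8248, 9999.7 and 8215 in Vav Cre 1 to 3, 6235, 6485 and 7149 in KDM6B OE, 6929.9, 6445 and 7877 in Tet2 KO, and 3672, 5301 and 5201 in the double lesion. The 3 double lesion sums were the lowest of the 12, and double lesion 1 was lowest among them. In bulk RNA, fewer dividing cells and less of these transcripts per cell cannot be told apart.

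The count rested in part on the 2 libraries that stood apart. It was 24 without double lesion 1 (median -0.69), 29 without Vav Cre 2 (median -0.77) and 16 without both (median -0.57), the last chosen after seeing the data. With only Vav Cre and the double lesion in the fit it was 22. Calls over all 13046 tested genes, in either direction, fell as well, from 1947 to 304, 611, 142 and 289 in these 4 fits. All 38 log2 differences stayed negative in the 21 alternatives, and 15 members passed in every one: Ccnb2, Cdk1, Cdca3, Birc5, Cdca8, Cenpa, Cenpe, Cenpf, Nuf2, Kif11, Nusap1, Tacc3, Ube2c, Top2a and Mki67. How many of all tested genes passed in every alternative was not counted. The 14 members that lost the call without double lesion 1 were Cks2, Aurka, Ttk, Bub1b, Ndc80, Kif23, Kif2c, Kif4, Tpx2, Dlgap5, Ckap5, Prc1, Anln and Ect2. Without regard to the test, and with those libraries set aside, double lesion 2 and 3 lay below Vav Cre 1 and 3 for 39 members. This follows from the count above, in which every double lesion library lay below every Vav Cre library for 39 members. The share of all tested genes with this order was not computed. By edgeR and by DESeq2 on the recovered reads 38 members were called, as by limma. Over all tested genes, in either direction, edgeR called 1652 and DESeq2 2676, against 1947 by limma.

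**Figure D2:**
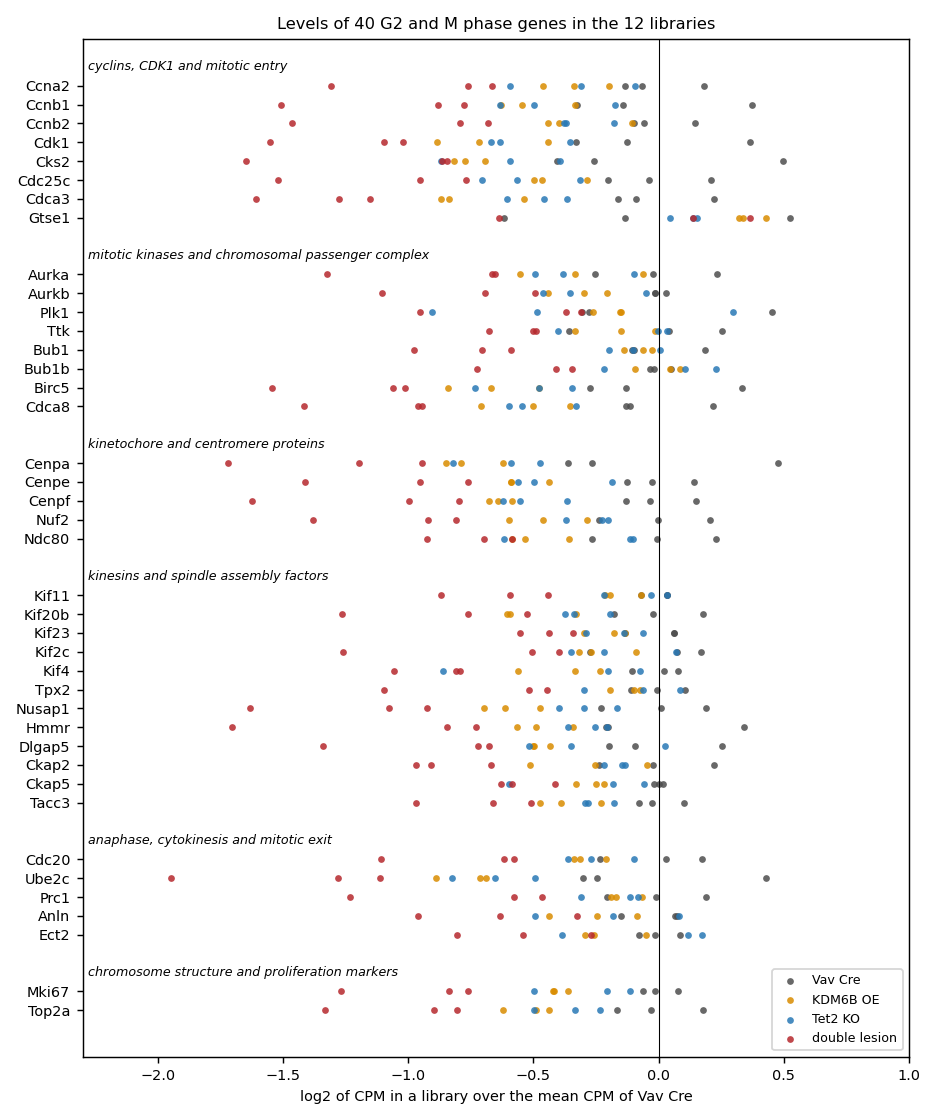
Each point is 1 library, placed by the log2 of its CPM over the mean CPM of the 3 Vav Cre libraries (x axis), for the 40 genes grouped by role (y axis), with genotype as colour. The double lesion points lie left of every Vav Cre point in 39 genes, Gtse1 being the exception.

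In the sentences that follow, log2 differences are on the log2(CPM + 1) scale with the standard error, adjusted p-values are from limma over all tested genes, and gene positions are from GENCODE on GRCm38. The counts by role, here and in the next paragraphs, are parts of the 38 calls, against 7.58% of all tested genes called lower. Of these 38 members, 23 lost the call in at least 1 of the 21 alternatives. Among the 8 genes of mitotic entry 7 fell in the double lesion (median -1.03). Ccna2 (cyclin A2, which serves CDK2 in S phase and CDK1 in G2; chr3:36564865-36572150, minus strand) stood at 202, 251 and 211 CPM in Vav Cre libraries 1 to 3, at 161, 175 and 193 with KDM6B OE, at 179, 147 and 208 in Tet2 KO and at 89.3, 131 and 139 in the double lesion. Ccna2 was lower in every double lesion library than in the 9 others, and KDM6B OE but not Tet2 KO lay wholly below Vav Cre. The fall of Ccna2 in the double lesion had a log2 difference of -0.90 ± 0.17 (adjusted p = 0.00773) and left 54.1% of the Vav Cre mean. Ccnb1 (cyclin B1, the partner that makes CDK1 the trigger of mitosis; chr13:100778650-100786570, minus strand) had 324, 463 and 285 CPM in Vav Cre, 231, 245 and 283 in KDM6B OE, 253, 230.2 and 317 in Tet2 KO and 126, 208 and 194 in the double lesion. Ccnb1 had its 3 lowest values in the double lesion, and KDM6B OE but not Tet2 KO lay wholly below Vav Cre. Against Vav Cre Ccnb1 fell to 49.2% of the mean in the double lesion, a log2 difference of -1.02 ± 0.20 (adjusted p = 0.0097). For Ccnb2 (cyclin B2, another B-type partner of CDK1; chr9:70407692-70421547, minus strand), the Vav Cre libraries gave 314, 362 and 306 CPM, KDM6B OE 248, 241 and 304, Tet2 KO 253, 252 and 289 and the double lesion 119, 204 and 189. Ccnb2 was lower in every double lesion library than in the 9 others, and both single lesion groups lay wholly below Vav Cre. By limma Ccnb2 fell by 0.97 ± 0.17 in the double lesion (adjusted p = 0.0058), to 52.1% of the Vav Cre mean. Cdk1 (the kinase at the centre of mitotic entry; chr10:69335146-69352938, minus strand) stood at 288, 405 and 250.3 CPM in Vav Cre libraries 1 to 3, at 170.1, 191 and 232 with KDM6B OE, at 197, 203 and 246 in Tet2 KO and at 107, 147 and 155 in the double lesion. Cdk1 had its 3 lowest values in the double lesion, and both single lesion groups lay wholly below Vav Cre. The fall of Cdk1 in the double lesion had a log2 difference of -1.19 ± 0.18 (adjusted p = 0.00399) and left 43.4% of the Vav Cre mean. Cks2 (a small CDK1 subunit that helps it bind substrates; chr13:51645232-51650660, plus strand) had 137, 232 and 124 CPM in Vav Cre, 96.1, 93.1 and 102 in KDM6B OE, 89.9, 125 and 109 in Tet2 KO and 52.3, 91.5 and 90.03 in the double lesion. Cks2 was lower in every double lesion library than in Vav Cre, with overlap with Tet2 KO, and KDM6B OE but not Tet2 KO lay wholly below Vav Cre. Against Vav Cre Cks2 fell to 47.5% of the mean in the double lesion, a log2 difference of -1.05 ± 0.24 (adjusted p = 0.0153). For Cdc25c (a phosphatase that relieves the inhibition of CDK1; chr18:34732993-34751533, minus strand), the Vav Cre libraries gave 41.9, 55.7 and 46.9 CPM, KDM6B OE 34.1, 39.5 and 34.9, Tet2 KO 32.5, 29.5 and 38.7 and the double lesion 16.8, 28.3 and 24.9. Cdc25c had its 3 lowest values in the double lesion, and both single lesion groups lay wholly below Vav Cre. By limma Cdc25c fell by 1.04 ± 0.19 in the double lesion (adjusted p = 0.00661), to 48.4% of the Vav Cre mean. Cdca3 (an adaptor that promotes breakdown of the CDK1 inhibitor WEE1; chr6:124829547-124833701, plus strand) stood at 184, 229 and 176 CPM in Vav Cre libraries 1 to 3, at 110.0, 108 and 135 with KDM6B OE, at 129, 152 and 143 in Tet2 KO and at 64.4, 81.00 and 88.4 in the double lesion. Cdca3 was lower in every double lesion library than in the 9 others, and both single lesion groups lay wholly below Vav Cre. The fall of Cdca3 in the double lesion had a log2 difference of -1.32 ± 0.14 (adjusted p = 0.000595) and left 39.7% of the Vav Cre mean. Cdca3 was also the member with calls in the most comparisons, as given further on. Gtse1 (a microtubule-associated protein of G2 that restrains p53; chr15:85859745-85876573, plus strand) had 13.5, 18.8 and 29.8 CPM in Vav Cre, 27.9, 26.1 and 25.9 in KDM6B OE, 21.4, 23.1 and 22.8 in Tet2 KO and 13.3, 22.8 and 26.7 in the double lesion. Gtse1 overlapped between the double lesion and Vav Cre, and both single lesion groups overlapped Vav Cre. For Gtse1 the double lesion difference was 0.03 ± 0.27 (adjusted p = 0.953), which did not pass the test. Gtse1 was the member that did not follow the others, and its Vav Cre libraries spread over more than the whole range of Tet2 KO.

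**Figure D3:**
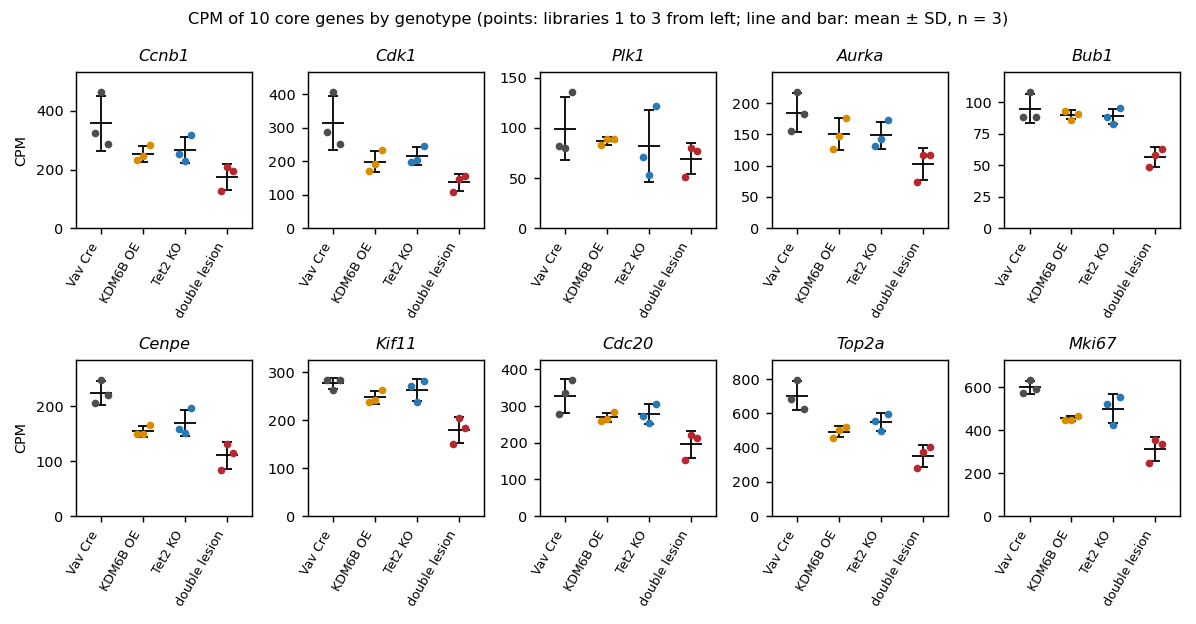
CPM (y axis, from 0) of 10 core genes in the 4 genotypes (x axis), with points for libraries 1 to 3 from left to right and a line with a bar for the mean ± SD (n = 3). In 9 of the 10 panels the double lesion is called lower than Vav Cre, and in the panel of Plk1 the spread within Vav Cre and Tet2 KO covers most of the difference.

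Mitotic kinases and the chromosomal passenger complex, which corrects faulty chromosome attachments, fell in 7 of 8 genes (median -0.75). For Aurka (Aurora A, the kinase of centrosomes and spindle poles; chr2:172356190-172370535, minus strand), the Vav Cre libraries gave 155, 217 and 182 CPM, KDM6B OE 126, 147 and 177, Tet2 KO 131, 142 and 173 and the double lesion 73.7, 116 and 118. Aurka was lower in every double lesion library than in the 9 others, and both single lesion groups overlapped Vav Cre. By limma Aurka fell by 0.86 ± 0.19 in the double lesion (adjusted p = 0.0148), to 55.5% of the Vav Cre mean. Aurkb (Aurora B, the catalytic subunit of the passenger complex; chr11:69045647-69051664, plus strand) stood at 239, 246 and 239 CPM in Vav Cre libraries 1 to 3, at 177, 196 and 209 with KDM6B OE, at 189, 175 and 233 in Tet2 KO and at 112, 171 and 149 in the double lesion. Aurkb had its 3 lowest values in the double lesion, and both single lesion groups lay wholly below Vav Cre. The fall of Aurkb in the double lesion had a log2 difference of -0.76 ± 0.15 (adjusted p = 0.00809) and left 59.8% of the Vav Cre mean. Birc5 (survivin, which brings the passenger complex to centromeres; chr11:117849251-117855743, plus strand) had 260.1, 358 and 235 CPM in Vav Cre, 159, 179 and 204 in KDM6B OE, 171, 204 and 224 in Tet2 KO and 97.4, 141 and 136 in the double lesion. Birc5 was lower in every double lesion library than in the 9 others, and both single lesion groups lay wholly below Vav Cre. Against Vav Cre Birc5 fell to 43.9% of the mean in the double lesion, a log2 difference of -1.18 ± 0.18 (adjusted p = 0.00359). For Cdca8 (borealin, a further passenger complex subunit; chr4:124918465-124939311, minus strand), the Vav Cre libraries gave 314, 395 and 310.5 CPM, KDM6B OE 208, 239.9 and 266, Tet2 KO 225, 232 and 270.1 and the double lesion 127, 174 and 176. Cdca8 had its 3 lowest values in the double lesion, and both single lesion groups lay wholly below Vav Cre. By limma Cdca8 fell by 1.09 ± 0.15 in the double lesion (adjusted p = 0.00257), to 46.9% of the Vav Cre mean. Plk1 (Polo-like kinase, which acts from centrosome maturation to cytokinesis; chr7:122159439-122169873, plus strand) stood at 81.7, 80.1 and 135 CPM in Vav Cre libraries 1 to 3, at 82.7, 89.1 and 89.2 with KDM6B OE, at 70.7, 52.8 and 122 in Tet2 KO and at 51.2, 79.9 and 76.6 in the double lesion. Plk1 was lower in every double lesion library than in Vav Cre, with overlap with Tet2 KO, and both single lesion groups overlapped Vav Cre. For Plk1 the double lesion difference was -0.49 ± 0.27 (adjusted p = 0.227), which did not pass the test. In Vav Cre, library 3 held the high Plk1 value and not library 2, which was highest for most members. Ttk (MPS1, the kinase that starts the spindle checkpoint; chr9:83834689-83872389, plus strand) had 51.6, 78.8 and 68.1 CPM in Vav Cre, 52.5, 59.5 and 65.4 in KDM6B OE, 65.98, 50.1 and 67.7 in Tet2 KO and 46.8, 41.3 and 47.2 in the double lesion. Ttk had its 3 lowest values in the double lesion, and both single lesion groups overlapped Vav Cre. Against Vav Cre Ttk fell to 68.1% of the mean in the double lesion, a log2 difference of -0.52 ± 0.17 (adjusted p = 0.048). Ttk was lowest in double lesion 2, the 1 member whose minimum was not in double lesion 1. For Bub1 (a checkpoint kinase of kinetochores; chr2:127801122-127831865, minus strand), the Vav Cre libraries gave 88.5, 108 and 87.9 CPM, KDM6B OE 92.9, 85.97 and 90.6, Tet2 KO 88.2, 82.5 and 94.95 and the double lesion 48.2, 58.1 and 62.99. Bub1 was lower in every double lesion library than in the 9 others, and both single lesion groups overlapped Vav Cre. By limma Bub1 fell by 0.74 ± 0.12 in the double lesion (adjusted p = 0.00551), to 59.6% of the Vav Cre mean. Bub1b (BUBR1, part of the complex that restrains the anaphase-promoting complex; chr2:118598211-118641591, plus strand) stood at 189, 179 and 180.4 CPM in Vav Cre libraries 1 to 3, at 171, 194 and 189 with KDM6B OE, at 196, 157 and 214 in Tet2 KO and at 110.5, 144 and 137 in the double lesion. Bub1b had its 3 lowest values in the double lesion, and both single lesion groups overlapped Vav Cre. The fall of Bub1b in the double lesion had a log2 difference of -0.49 ± 0.13 (adjusted p = 0.0255) and left 71.5% of the Vav Cre mean. In KDM6B OE and Tet2 KO these 2 checkpoint genes stood close to Vav Cre, with log2 differences from it of -0.07 ± 0.12 (adjusted p = 0.785) and -0.09 ± 0.12 (adjusted p = 0.779) for Bub1.

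All 5 kinetochore and centromere genes fell (median -1.03). Cenpa (the histone H3 variant that marks centromeres; chr5:30666777-30674830, plus strand) had 229, 410.1 and 245 CPM in Vav Cre, 171, 163 and 192 in KDM6B OE, 167, 196 and 212 in Tet2 KO and 89.4, 153 and 129 in the double lesion. Cenpa was lower in every double lesion library than in the 9 others, and both single lesion groups lay wholly below Vav Cre. Against Vav Cre Cenpa fell to 41.9% of the mean in the double lesion, a log2 difference of -1.23 ± 0.21 (adjusted p = 0.00561). For Cenpe (a kinetochore motor that carries chromosomes to the spindle equator; chr3:135212537-135273611, plus strand), the Vav Cre libraries gave 205, 248 and 220.1 CPM, KDM6B OE 149, 149 and 166, Tet2 KO 159, 152 and 197 and the double lesion 84.3, 132 and 116. Cenpe had its 3 lowest values in the double lesion, and both single lesion groups lay wholly below Vav Cre. By limma Cenpe fell by 1.03 ± 0.15 in the double lesion (adjusted p = 0.00327), to 49.4% of the Vav Cre mean. Cenpf (a kinetochore protein that accumulates in G2; chr1:189640606-189688086, minus strand) stood at 231, 280.1 and 247 CPM in Vav Cre libraries 1 to 3, at 158, 162 and 168 with KDM6B OE, at 172, 164 and 196 in Tet2 KO and at 81.9, 145 and 126 in the double lesion. Cenpf was lower in every double lesion library than in the 9 others, and both single lesion groups lay wholly below Vav Cre. The fall of Cenpf in the double lesion had a log2 difference of -1.13 ± 0.17 (adjusted p = 0.00327) and left 46.7% of the Vav Cre mean. Nuf2 (a subunit of the NDC80 complex, which holds microtubules; chr1:169497934-169531464, minus strand) had 145, 168 and 123 CPM in Vav Cre, 96.1, 105 and 119 in KDM6B OE, 124, 112 and 126 in Tet2 KO and 55.8, 82.8 and 76.7 in the double lesion. Nuf2 had its 3 lowest values in the double lesion, and KDM6B OE but not Tet2 KO lay wholly below Vav Cre. Against Vav Cre Nuf2 fell to 49.4% of the mean in the double lesion, a log2 difference of -1.02 ± 0.15 (adjusted p = 0.0036). For Ndc80 (the subunit for which that complex is named; chr17:71496100-71526857, minus strand), the Vav Cre libraries gave 107, 126 and 88.9 CPM, KDM6B OE 71.2, 73.9 and 83.4, Tet2 KO 98.8, 69.7 and 99.6 and the double lesion 56.3, 65.9 and 71.3. Ndc80 was lower in every double lesion library than in Vav Cre, with overlap with KDM6B OE and Tet2 KO, and KDM6B OE but not Tet2 KO lay wholly below Vav Cre. By limma Ndc80 fell by 0.71 ± 0.16 in the double lesion (adjusted p = 0.0158), to 60.3% of the Vav Cre mean. Nuf2 and Ndc80 encode partners in 1 complex, and in KDM6B OE both had log2 differences from Vav Cre of similar size, -0.43 ± 0.15 (adjusted p = 0.144) and -0.47 ± 0.16 (adjusted p = 0.139), neither past the test.

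All 12 kinesins and spindle assembly factors fell (median -0.77). The motors are given first. Kif11 (EG5, the kinesin that pushes the spindle poles apart; chr19:37376403-37421859, plus strand) stood at 283, 263 and 283 CPM in Vav Cre libraries 1 to 3, at 238, 241 and 263 with KDM6B OE, at 270.3, 237 and 282 in Tet2 KO and at 151, 204 and 183 in the double lesion. Kif11 had its 3 lowest values in the double lesion, and both single lesion groups overlapped Vav Cre. The fall of Kif11 in the double lesion had a log2 difference of -0.63 ± 0.11 (adjusted p = 0.00653) and left 64.9% of the Vav Cre mean. Kif20b (a kinesin needed to complete cytokinesis; chr19:34922361-34975745, plus strand) had 181, 231 and 201 CPM in Vav Cre, 135, 134 and 163 in KDM6B OE, 162, 158 and 179 in Tet2 KO and 85.01, 121 and 142 in the double lesion. Kif20b was lower in every double lesion library than in Vav Cre, with overlap with KDM6B OE, and both single lesion groups lay wholly below Vav Cre. Against Vav Cre Kif20b fell to 56.7% of the mean in the double lesion, a log2 difference of -0.84 ± 0.16 (adjusted p = 0.00863). For Kif23 (a motor of centralspindlin at the cell midzone; chr9:61915905-61946774, minus strand), the Vav Cre libraries gave 162, 162 and 142 CPM, KDM6B OE 142, 126 and 137, Tet2 KO 141, 127 and 149 and the double lesion 106, 123 and 115. Kif23 had its 3 lowest values in the double lesion, and both single lesion groups overlapped Vav Cre. By limma Kif23 fell by 0.44 ± 0.10 in the double lesion (adjusted p = 0.0188), to 73.6% of the Vav Cre mean. Kif2c (MCAK, which depolymerises microtubule ends; chr4:117159639-117182639, minus strand) stood at 139.5, 109.7 and 149 CPM in Vav Cre libraries 1 to 3, at 107, 110.2 and 125 with KDM6B OE, at 114, 104 and 139 in Tet2 KO and at 55.4, 101 and 93.4 in the double lesion. Kif2c was lower in every double lesion library than in the 9 others, and both single lesion groups overlapped Vav Cre. The fall of Kif2c in the double lesion had a log2 difference of -0.70 ± 0.20 (adjusted p = 0.0332) and left 62.7% of the Vav Cre mean. Kif4 (a chromosome-bound kinesin that works with PRC1; chrX:100625737-100727214, plus strand) had 97.7, 107 and 111 CPM in Vav Cre, 71.2, 83.5 and 89.4 in KDM6B OE, 91.4, 57.8 and 100.1 in Tet2 KO and 50.5, 60.7 and 59.99 in the double lesion. Kif4 was lower in every double lesion library than in Vav Cre, with overlap with Tet2 KO, and KDM6B OE but not Tet2 KO lay wholly below Vav Cre. Against Vav Cre Kif4 fell to 54.2% of the mean in the double lesion, a log2 difference of -0.87 ± 0.17 (adjusted p = 0.01). Kif23 had the smallest fall of the 38 called members.

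Spindle assembly factors that are not motors were lower as well. For Tpx2 (the activator of Aurora A on the spindle; chr2:152847964-152895321, plus strand), the Vav Cre libraries gave 214, 232 and 199.6 CPM, KDM6B OE 188, 201 and 205, Tet2 KO 206, 175 and 229 and the double lesion 101, 151 and 158. Tpx2 was lower in every double lesion library than in the 9 others, and both single lesion groups overlapped Vav Cre. By limma Tpx2 fell by 0.68 ± 0.15 in the double lesion (adjusted p = 0.0156), to 63.4% of the Vav Cre mean. Nusap1 (which bundles microtubules near chromosomes; chr2:119618298-119651244, plus strand) stood at 339, 384 and 287 CPM in Vav Cre libraries 1 to 3, at 219.7, 208 and 242 with KDM6B OE, at 274, 255 and 300.1 in Tet2 KO and at 108, 159 and 177 in the double lesion. Nusap1 had its 3 lowest values in the double lesion, and KDM6B OE but not Tet2 KO lay wholly below Vav Cre. The fall of Nusap1 in the double lesion had a log2 difference of -1.20 ± 0.16 (adjusted p = 0.00257) and left 44.1% of the Vav Cre mean. The exons of Nusap1 overlap those of Oip5 on the opposite strand, another mitotic gene, which differed by -0.81 ± 0.20 (adjusted p = 0.0212) in the same comparison. Hmmr (RHAMM, a spindle pole protein and hyaluronan receptor; chr11:40701395-40733422, minus strand) had 161, 235 and 161 CPM in Vav Cre, 126, 132 and 147 in KDM6B OE, 145, 161 and 156 in Tet2 KO and 56.96, 112 and 103 in the double lesion. Hmmr was lower in every double lesion library than in the 9 others, and KDM6B OE but not Tet2 KO lay wholly below Vav Cre. Against Vav Cre Hmmr fell to 48.8% of the mean in the double lesion, a log2 difference of -1.06 ± 0.21 (adjusted p = 0.00997). For Dlgap5 (HURP, which stabilises kinetochore fibres; chr14:47387779-47418407, minus strand), the Vav Cre libraries gave 83.6, 114 and 90.02 CPM, KDM6B OE 68.03, 67.8 and 71.1, Tet2 KO 75.2, 67.1 and 97.7 and the double lesion 37.9, 60.1 and 58.2. Dlgap5 had its 3 lowest values in the double lesion, and KDM6B OE but not Tet2 KO lay wholly below Vav Cre. By limma Dlgap5 fell by 0.89 ± 0.18 in the double lesion (adjusted p = 0.0118), to 54.2% of the Vav Cre mean. Ckap2 (a promoter of microtubule growth; chr8:22168160-22185819, minus strand) stood at 82.98, 98.3 and 71.4 CPM in Vav Cre libraries 1 to 3, at 58.96, 70.6 and 81.7 with KDM6B OE, at 72.5, 76.1 and 76.7 in Tet2 KO and at 43.05, 52.99 and 44.9 in the double lesion. Ckap2 was lower in every double lesion library than in the 9 others, and both single lesion groups overlapped Vav Cre. The fall of Ckap2 in the double lesion had a log2 difference of -0.82 ± 0.15 (adjusted p = 0.0061) and left 55.8% of the Vav Cre mean. Ckap5 (chTOG, a microtubule polymerase; chr2:91526762-91620664, plus strand) had 233, 239 and 236 CPM in Vav Cre, 198, 188 and 203 in KDM6B OE, 208, 156 and 227 in Tet2 KO and 152, 157 and 177 in the double lesion. Ckap5 was lower in every double lesion library than in Vav Cre, with overlap with Tet2 KO, and both single lesion groups lay wholly below Vav Cre. Against Vav Cre Ckap5 fell to 68.8% of the mean in the double lesion, a log2 difference of -0.54 ± 0.12 (adjusted p = 0.0163). For Tacc3 (which links microtubules within kinetochore fibres; chr5:33658128-33678995, plus strand), the Vav Cre libraries gave 255, 278 and 246 CPM, KDM6B OE 198, 187 and 221, Tet2 KO 213, 211 and 229 and the double lesion 132, 182 and 164. Tacc3 was lower in every double lesion library than in the 9 others, and both single lesion groups lay wholly below Vav Cre. By limma Tacc3 fell by 0.71 ± 0.12 in the double lesion (adjusted p = 0.00549), to 61.5% of the Vav Cre mean. Exons of 12 of the 40 members overlap exons of another gene, mostly on the opposite strand (Exosc9 for Ccna2, Elovl1 for Cdc20, Tnnc2 for Ube2c, Pdzd11 for Kif4, Tmem129 for Tacc3 and Rccd1 for Prc1, for example), and this library kit does not mark strand, so reads from such stretches cannot be assigned to 1 of the 2 genes.

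Genes of anaphase, cytokinesis and mitotic exit fell in 5 of 5 cases (median -0.74). Cdc20 (the activator of the anaphase-promoting complex; chr4:118432901-118437352, minus strand) stood at 279, 335 and 371 CPM in Vav Cre libraries 1 to 3, at 259.5, 264 and 284 with KDM6B OE, at 273, 255 and 307 in Tet2 KO and at 152, 220.2 and 214 in the double lesion. Cdc20 had its 3 lowest values in the double lesion, and both single lesion groups overlapped Vav Cre. The fall of Cdc20 in the double lesion had a log2 difference of -0.76 ± 0.14 (adjusted p = 0.00788) and left 59.5% of the Vav Cre mean. Ube2c (the ubiquitin-conjugating enzyme of that complex; chr2:164769898-164778822, plus strand) had 239, 398 and 249.5 CPM in Vav Cre, 159.7, 180.4 and 183 in KDM6B OE, 167, 188 and 209.7 in Tet2 KO and 76.7, 137 and 122 in the double lesion. Ube2c was lower in every double lesion library than in the 9 others, and both single lesion groups lay wholly below Vav Cre. Against Vav Cre Ube2c fell to 37.8% of the mean in the double lesion, a log2 difference of -1.40 ± 0.21 (adjusted p = 0.0036). Ube2c had the lowest double lesion share of Vav Cre of the 40 members. For Prc1 (a crosslinker of the central spindle; chr7:80294450-80316259, plus strand), the Vav Cre libraries gave 228, 262 and 199 CPM, KDM6B OE 204, 201 and 219.8, Tet2 KO 212, 185 and 217 and the double lesion 97.95, 154 and 167. Prc1 had its 3 lowest values in the double lesion, and both single lesion groups overlapped Vav Cre. By limma Prc1 fell by 0.74 ± 0.17 in the double lesion (adjusted p = 0.0156), to 60.7% of the Vav Cre mean. Anln (anillin, a scaffold of the contractile ring; chr9:22332012-22389188, minus strand) stood at 98.3, 98.95 and 84.7 CPM in Vav Cre libraries 1 to 3, at 69.3, 79.3 and 88.6 with KDM6B OE, at 82.96, 66.8 and 99.6 in Tet2 KO and at 48.3, 60.5 and 74.9 in the double lesion. Anln was lower in every double lesion library than in Vav Cre, with overlap with KDM6B OE and Tet2 KO, and both single lesion groups overlapped Vav Cre. The fall of Anln in the double lesion had a log2 difference of -0.63 ± 0.17 (adjusted p = 0.0303) and left 65.1% of the Vav Cre mean. Ect2 (the exchange factor that activates RhoA for furrowing; chr3:27097222-27153878, minus strand) had 111, 116 and 125 CPM in Vav Cre, 95.6, 98.1 and 113 in KDM6B OE, 132, 89.8 and 127 in Tet2 KO and 67.2, 97.4 and 80.6 in the double lesion. Ect2 was lower in every double lesion library than in Vav Cre, with overlap with KDM6B OE and Tet2 KO, and both single lesion groups overlapped Vav Cre. Against Vav Cre Ect2 fell to 69.6% of the mean in the double lesion, a log2 difference of -0.53 ± 0.16 (adjusted p = 0.0408).

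The proliferation markers of this set fell together. For Mki67 (Ki-67, a coat of mitotic chromosomes used as a marker of dividing cells; chr7:135689784-135716361, minus strand), the Vav Cre libraries gave 575, 633 and 594 CPM, KDM6B OE 448, 449.7 and 467, Tet2 KO 519.9, 425 and 554 and the double lesion 249, 354 and 336. Mki67 was lower in every double lesion library than in the 9 others, and both single lesion groups lay wholly below Vav Cre. By limma Mki67 fell by 0.95 ± 0.13 in the double lesion (adjusted p = 0.00282), to 52.1% of the Vav Cre mean. Top2a (topoisomerase II alpha, which untangles sister chromosomes; chr11:98992943-99024189, minus strand) stood at 687, 793 and 625 CPM in Vav Cre libraries 1 to 3, at 456, 500.3 and 518 with KDM6B OE, at 557, 497 and 596 in Tet2 KO and at 279, 377 and 401 in the double lesion. Top2a had its 3 lowest values in the double lesion, and both single lesion groups lay wholly below Vav Cre. The fall of Top2a in the double lesion had a log2 difference of -1.003 ± 0.14 (adjusted p = 0.00282) and left 50.2% of the Vav Cre mean. Both genes carry CHR elements and CCAAT boxes in the windows printed above, 4 CHR elements in the case of Top2a.

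In the single lesion groups the means of 38 members stood between Vav Cre and the double lesion, the exceptions being Bub1b and Gtse1, and few differences passed the test. KDM6B OE, Tet2 KO and the double lesion were all compared with the same 3 Vav Cre libraries, so their differences share that error. In KDM6B OE against Vav Cre 1 of 40 members, Cdca3, was called lower (-0.73 ± 0.14 (adjusted p = 0.0389)), while 0.0767% of all tested genes were. Lower at an unadjusted limma p under 0.05 were 20 members, against 1172 of all 13046 tested genes. The median was -0.37 over the members and 0.04 over all tested genes, 38 members were negative, and for 25 members every KDM6B OE library lay below every Vav Cre library, against 10.9% of all tested genes. After Cdca3 the lowest were Ube2c at -0.72 ± 0.21 (adjusted p = 0.114) and Cenpa at -0.70 ± 0.21 (adjusted p = 0.118). The count depended on the libraries and the tool: it was 14 by DESeq2, 13 without Vav Cre 3, 2 without double lesion 1, and 0 when Vav Cre 1, Vav Cre 2, KDM6B OE 1, KDM6B OE 2, Tet2 KO 3, double lesion 2 or double lesion 3 was left out. Over all tested genes, limma called 78, against 729 by DESeq2, 1934 without Vav Cre 3 and 58 without double lesion 1. Gtse1 was the highest, at 0.42 ± 0.27 (adjusted p = 0.377).

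In Tet2 KO against Vav Cre 0 of 40 members passed by limma, edgeR or DESeq2. Background shares called lower were 0.00767% by limma, 0.00767% by edgeR and 0.322% by DESeq2. At an unadjusted p under 0.05 limma had 12 members lower, against 5.44% of all tested genes. The median was -0.28 over the members and 0.03 over all tested genes. Every Tet2 KO library lay below every Vav Cre library for 16 members, against 5.7% of all tested genes. The lowest were Ube2c at -0.62 ± 0.21 (adjusted p = 0.266), Cenpa at -0.58 ± 0.21 (adjusted p = 0.303) and Cks2 at -0.56 ± 0.24 (adjusted p = 0.337). The members' sum was highest in Tet2 KO 3 among the 9 libraries with a lesion.

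**Figure D4:**
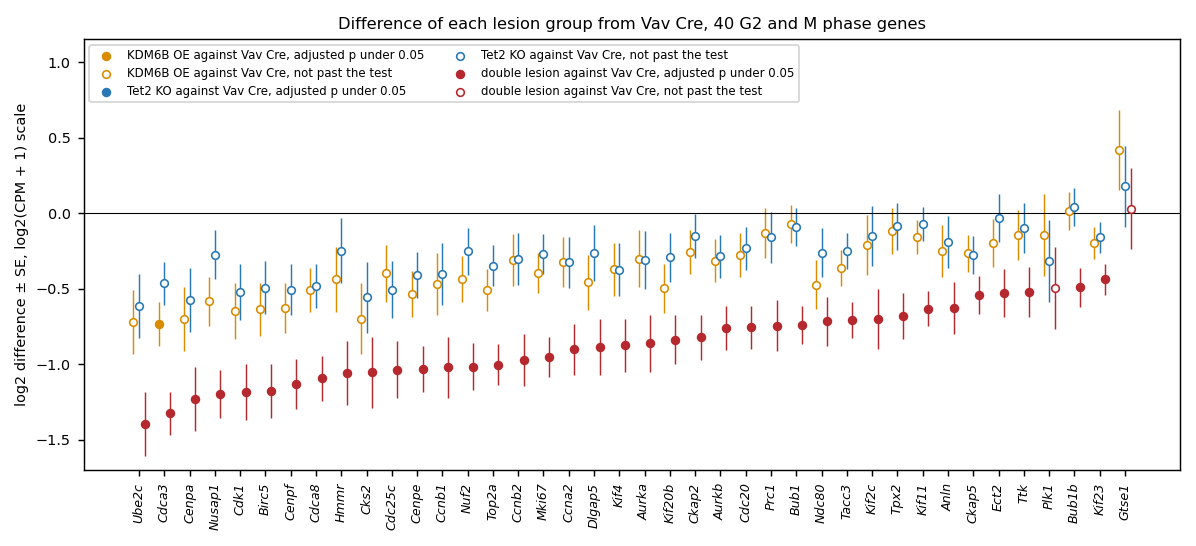
log2 difference from Vav Cre ± SE (y axis) for each of the 40 genes, ordered by the double lesion value (x axis), in KDM6B OE, Tet2 KO and the double lesion, with filled points where the limma adjusted p was under 0.05. Filled points are 38 in the double lesion, 1 in KDM6B OE (Cdca3) and 0 in Tet2 KO.

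The double lesion was next set against each single lesion group. Against KDM6B OE 0 of 40 members passed by limma (0% of all tested genes called lower) or edgeR (0%), and 1 member, Bub1, passed by DESeq2 (0.046% of all tested genes). At an unadjusted p under 0.05 limma had 34 members lower, against 3.14% of all tested genes. All 40 log2 differences were negative, with a median of -0.50 against -0.01 over all tested genes, and for 35 members every double lesion library lay below every KDM6B OE library, against 9.72% of all tested genes. The lowest were Ube2c at -0.68 ± 0.21 (adjusted p = 0.608), Bub1 at -0.67 ± 0.12 (adjusted p = 0.278) and Ccnb2 at -0.66 ± 0.17 (adjusted p = 0.446). Without double lesion 1 the median was -0.34 over the members and -0.01 over all tested genes. With both groups alone in the fit 1 member was called, while 61 of all 13046 tested genes were called in either direction, against 0 in the main fit. Against Tet2 KO 2 of 40 members were called lower by limma, against 0.023% of all tested genes: Cdca3 at -0.86 ± 0.14 (adjusted p = 0.0291) and Nusap1 at -0.92 ± 0.16 (adjusted p = 0.0344). All 40 log2 differences were again negative (median -0.58, and -0.00 over all tested genes), and for 32 members every double lesion library lay below every Tet2 KO library, against 10.9% of all tested genes. With double lesion 1 left out, the median was -0.40 over the members and -0.01 over all tested genes. DESeq2 called 14 members in this comparison, edgeR called 1, and limma called 0 with a term for Y chromosome transcripts, while 146, 20 and 18 of all tested genes were called in these 3 fits and 28 by limma without the term. By limma the count was 7 without Vav Cre 2, 6 without Vav Cre 3, 1 when any of Vav Cre 1, KDM6B OE 2, KDM6B OE 3, Tet2 KO 2 and double lesion 3 was left out, and 0 in the absence of KDM6B OE 1, Tet2 KO 1, Tet2 KO 3, double lesion 1 or double lesion 2. Over all tested genes 52 were called without Vav Cre 2 and 55 without Vav Cre 3. The fits with 1 member called had 10 to 27, and those with 0 had 9 to 18.

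The interaction of the 2 lesions tested whether the double lesion departed from the sum of both single lesion differences on the log2 scale. Because only the KDM6B OE label names no Cre, any effect of Cre does not cancel in this contrast. The interaction and such an effect cannot be told apart here. By limma, edgeR and DESeq2 0 of 40 members passed, with background shares called lower of 0%, 0% and 0.0307%. At an unadjusted p under 0.05 limma had 4 of 40 members lower, Bub1, Bub1b, Kif11 and Tpx2, against 3% of all tested genes. Bub1 stood at -0.58 ± 0.18 (adjusted p = 0.9987) and Bub1b at -0.54 ± 0.18 (adjusted p = 0.9987). All 4 genes had small differences from Vav Cre in both single lesion groups. The median of the members was -0.16, with 35 negative, and -0.03 over all tested genes. Without double lesion 1 the members' median was -0.03, and that of all tested genes was also -0.03. The members' median was -0.25 without Vav Cre 2, -0.08 without both libraries and -0.09 with the Y chromosome term. A p that misses the threshold does not show that the lesions add up, and the standard errors of the members here ran from 0.15 to 0.38.

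The order of the 4 group means was the same in most members. It was Vav Cre, Tet2 KO, KDM6B OE, double lesion from high to low in 33 members, and Vav Cre, KDM6B OE, Tet2 KO, double lesion in 5 (Cdc25c, Aurka, Plk1, Bub1 and Prc1). Bub1b had Tet2 KO on top and the double lesion lowest, and Gtse1 had Vav Cre lowest. The neighbours KDM6B OE and Tet2 KO in this order overlapped in most members, and no test of 1 against the other was made.

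Other genes of the cell cycle were read from lists beside the members. Against 7.58% of all tested genes called lower, 34 of 64 other mitotic genes fell in the double lesion by limma and none (0, and 1 at an unadjusted p under 0.05) rose, with a median of -0.59. The 4 with the smallest adjusted p were Kif15, a spindle kinesin (mean 143 ± 7.22 CPM in Vav Cre and 73.8 ± 12.03 CPM with both lesions, SD, n = 3), and Cenpm, Spc25 and Melk. Cenpm, of the inner kinetochore, differed by -1.07 ± 0.15 (adjusted p = 0.00282), Spc25, of the NDC80 complex, by -1.07 ± 0.15 (adjusted p = 0.00315) and Melk, a mitotic kinase, by -0.91 ± 0.13 (adjusted p = 0.00327). Of 50 S phase genes 15 fell, against the same 7.58%, and none (0, and 1 at an unadjusted p under 0.05) rose, with a median of -0.24. Clspn, the replication checkpoint adaptor claspin, differed by -0.89 ± 0.15 (adjusted p = 0.00558), Prim2, a primase subunit, by -0.57 ± 0.11 (adjusted p = 0.00773) and Tyms, thymidylate synthase, by -0.78 ± 0.15 (adjusted p = 0.00839). In KDM6B OE 0 of the 64 other mitotic genes passed by limma, with 24 lower at an unadjusted p under 0.05, and in Tet2 KO 0 passed, with 16 lower at that level. Of all 13046 tested genes, 1172 and 710 were lower at that level in these 2 comparisons.

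Transcription factors that bind or time these promoters were read as a list of 25 genes (median -0.05). Of these 3 fell in the double lesion, against 7.58% of all tested genes, and the 3 lost their calls in 8 to 13 of the 21 alternatives: E2f3 at -0.82 ± 0.24 (adjusted p = 0.0376), Rbl1, a pocket protein of DREAM, at -0.40 ± 0.12 (adjusted p = 0.0419) and Tfdp1, the partner of E2F proteins, at -0.37 ± 0.11 (adjusted p = 0.0438). None (0) rose by limma, and 2 were higher at an unadjusted p under 0.05. Foxm1, an activator of the CHR promoters, had a mean of 31.5 ± 8.62 CPM (SD, n = 3) among Vav Cre libraries and of 29.7 ± 4.88 CPM with both lesions, a difference of -0.06 ± 0.31 (adjusted p = 0.922) that changed sign in 4 of the alternatives. Mybl2, its partner, stood at 41.9 ± 11.02 CPM and 31.5 ± 7.24 CPM, a difference of -0.39 ± 0.23 (adjusted p = 0.264). Myb, the related factor of blood progenitors, stood at 494 ± 7.72 CPM and 578 ± 19.7 CPM, a difference of 0.23 ± 0.08 (adjusted p = 0.0666). None of the 3 passed the test. The levels of Foxm1 in the double lesion lay within the range of the Vav Cre libraries.

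**Figure D5:**
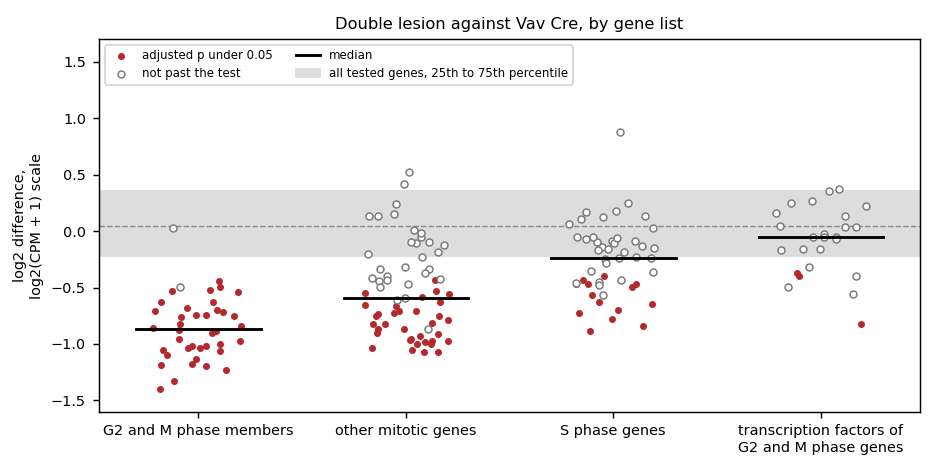
log2 difference of the double lesion from Vav Cre (y axis) for each gene of 4 lists (x axis), with red points where the limma adjusted p was under 0.05, a line at each list's median, and a grey band for the 25th to 75th percentile of all tested genes with a dashed line at their median. The medians are -0.87 for the G2 and M phase genes, -0.59 for other mitotic genes, -0.24 for S phase genes and -0.05 for the transcription factors.

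Markers of other cells and states moved beside the members, and their part in the result was not tested. The share of all tested genes called higher in the double lesion, 7.34%, is the background for the counts that follow. Of 14 long-term stem cell genes 4 rose and 5 had negative differences (median 0.25). Among those that rose were the transcription factors Meis1, by 0.64 ± 0.16 (adjusted p = 0.0209), Gata2 by 0.67 ± 0.18 (adjusted p = 0.0294) and Hlf by 0.68 ± 0.19 (adjusted p = 0.0354), whose calls were lost in 5, 7 and 5 of the 21 alternatives. Their list summed to 1356 to 1905 CPM in Vav Cre and 1964 to 2444 CPM in the double lesion, with no overlap in the sum and with every gene above 0 in every library. The mean log2 level of the list did overlap, with Vav Cre 1 at 6.30 and double lesion 2 and 3 at 5.96 and 6.21. Immediate early genes, the fast first response of cells to a stimulus or to handling, rose in 9 of 10 cases in the double lesion and in 9 of 10 in KDM6B OE, where 68 of all 13046 tested genes were called higher. Their sum ran from 1109 to 2070.3 CPM in Vav Cre and from 1149.8 to 2582 CPM in Tet2 KO, against 5736 to 8702 CPM for KDM6B OE and 6287 to 9530.1 CPM with both lesions, so the libraries with the transgene did not overlap those without it. Genes that the sort should remove summed to 27.7 to 35.3 CPM in Vav Cre and 50.97 to 64.4 CPM in the double lesion. Cd3e of T cells was at 0 in 1 library and at most 1.43 CPM. Of 9 B cell genes 3 rose, with sums of 90.5 to 112 and 109 to 138 CPM, and Pax5, which defines that lineage, was at 0 in 9 of the 12 libraries. The mean log2 level of the B cell list did not overlap, at 1.54 to 1.86 in Vav Cre and 2.59 to 3.18 in the double lesion. Mature myeloid genes rose in 4 of 9 cases (S100a8, S100a9, Ngp and Cd14, which lost their calls in 1, 2, 8 and 11 of the 21 alternatives). Their list had overlapping sums of 376 to 446 and 425 to 482 CPM, and Lyz2 alone stood at 345 to 495 CPM over the 12 libraries. The mean log2 level of that list did not overlap, at 1.80 to 1.96 in Vav Cre and 2.79 to 3.68 in the double lesion. It also lay wholly above Vav Cre in both single lesion groups, at 2.36 to 2.85 in KDM6B OE and 2.78 to 3.29 in Tet2 KO. Of granulocyte and monocyte progenitor genes 2 of 10 rose (Fcnb and Cebpe, at medians of 0.649 and 1.22 CPM over the libraries, which lost their calls in 5 and 14 of the 21 alternatives), with overlapping sums of 2397 to 5152 and 3247 to 6297 CPM. The 7 erythroid genes summed to 377 to 1911 CPM in Vav Cre and 292 to 639.8 CPM in the double lesion, where 0 passed by limma, also at an unadjusted p under 0.05. Klf1, the erythroid regulator, had a mean of 74.5 ± 60.7 CPM among Vav Cre libraries and of 34.1 ± 12.7 CPM with both lesions, a spread set by Vav Cre 2.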

How the data were processed

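RNA-seq of bone marrow LSK cells from 12 libraries (4 genotypes, 3 each) was analysed from 1 deposited table. Per the labels' protocols, RNA of sorted cells was amplified with a SMARTer kit and made into Nextera libraries. Per the submitters' processing notes, TopHat2 2.0.10, HTSeq 0.6.0 and edgeR 3.8.6 were used on mm10. Annotation and strand setting: not given in the sources used here. Deposited values are a signal, CPM over an effective library size as the file name states, and 100% of them were whole reads (tolerance 1e-06 reads) once multiplied by it, with a minimum of 10 reads per gene over all libraries. This unit was met with the test planned for CPM. The members and the other gene lists were chosen with earlier results of these data known.

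The test was run on log2(CPM + 1) by limma 3.58.1 (R 4.3.3), trended, over all 12 libraries with 1 mean per genotype (8 residual degrees of freedom), for genes above 1 CPM in at least 3 libraries (13046 tested, 2320 set aside), with Benjamini-Hochberg adjustment over all tested genes. A gene was called at an adjusted p under 0.05. The steps were tested on simulated data. Alternatives were edgeR 4.0.16 and DESeq2 1.42.0 on the recovered reads, a pseudocount of 0.25, no filter, fewer groups, a replicate block, a term for Y chromosome transcripts, scaling to the column total, and leaving out libraries. By rule, library values are printed for each member called in any comparison, the 3 largest differences from Vav Cre per lesion group and 10 core genes, and Gtse1, outside the rule, was added after its values were seen. Of other lists the called genes are named (at most 4, by smallest adjusted p), or the 2 that differed most, and Foxm1, Mybl2 and Myb. A few genes that this rule names are not reported here. Promoters were printed for 6 called members with a CHR element in the window. Depth was 21935022 to 26263370 reads per library.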

Additional observations from a re-analysis of the deposited data

How the results depend on the processing

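Members called lower in the double lesion against Vav Cre numbered 38, and 35 to 38 without the low value filter, with a pseudocount of 0.25, with the Y chromosome term, scaled to the column total, by edgeR or by DESeq2, 22 in a fit of the compared groups alone, 24 (without double lesion 1) to 38 when 1 library was left out, and 16 without Vav Cre 2 and double lesion 1 together, which was added after seeing the data and moved the median from -0.87 to -0.57. In the main fit of this comparison 1947 of all tested genes were called. They numbered 1354 to 2676 in the filter, pseudocount, Y chromosome, scaling, edgeR and DESeq2 settings. With the compared groups alone they were 289, without 1 library 304 to 3585, and without both libraries 142. Scaling to the column total moved the median of all tested genes in this comparison to 0.12 and that of the members to -0.78, with 36 called. The samples are not treated as paired by their replicate numbers: deviations from group means correlated at -0.149 to 0.388 over 18 pairs with a shared number, 10 of them over 0.1 (6 of 6 for number 1, 3 of 6 for number 2 and 1 of 6 for number 3). With the replicate block 38 members were called in the double lesion, 5 in KDM6B OE and 3 against Tet2 KO, and 0 in the other 3 comparisons. Over all tested genes the block fit called 2699, 284 and 37 in the first 3 of these, against 1947, 78 and 28 in the main fit. For KDM6B OE against Vav Cre the count of 1 became 0 with only the compared groups, 4 with the Y chromosome term, 14 by DESeq2, 0 to 13 leaving out 1 library, and 0 without the 2 libraries together. Over all tested genes these fits called 22, 162, 729, 22 to 1934 and 35, against 78 in the main fit. For the double lesion against KDM6B OE the count of 0 became 1 with only the compared groups and 1 by DESeq2. These 2 fits called 61 and 20 of all tested genes, against 0 in the main fit. For the double lesion against Tet2 KO the count of 2 became 0 with the Y chromosome term, 1 by edgeR, 3 with only the compared groups, 14 by DESeq2 and 0 to 7 leaving out 1 library. Over all tested genes these fits called 18, 20, 53, 146 and 9 to 55, against 28 in the main fit. In Tet2 KO against Vav Cre and in the interaction 0 members were called by limma, edgeR and DESeq2 and in each alternative run, while 12 and 4 members were lower at an unadjusted limma p under 0.05. Foxm1 differed by -0.06 in the double lesion, and by 0.026 scaled to the total, 0.04 without Vav Cre 1, 0.093 without Vav Cre 3 and 0.07 without double lesion 1 (-0.30 to 0.093 over libraries left out). Gtse1 differed by 0.03, and by -0.00807 with DESeq2, -0.23 without Vav Cre 1, -0.000436 without Vav Cre 2, -0.06 without double lesion 2 and -0.16 without double lesion 3 (-0.23 to 0.32 over libraries left out). Without Vav Cre 2 and double lesion 1 together, Car1 (-0.88 in all libraries) and Klf1 differed by 0.16 and 0.13. The cause of these changes was not tested.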
